A study of Mus musculus with 16 samples.

Results

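This report describes 10 genes of the phospholipase A2 and prostaglandin pathway in newborn mouse ovaries: Pla2g2f, Pla2r1, Pla2g4a, Ptgs1, Ptgs2, Ptgds, Ptges, Hpgd, Ptgfr and Ptger4. They were chosen by name, with earlier results of these data known. Each was represented by the probe set with the highest mean level over all arrays among those annotated to that gene alone. Of the 10 genes, 9 were measured, on 21 probe sets, among 18193 genes on the array. No probe set was named for Ptgs1 alone in the annotation used, so Ptgs1 was not analysed here.

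Each of 16 Affymetrix arrays carried RNA of a single XX ovary taken at birth (P0) and freed of the mesonephros, with 4 ovaries per genotype. The DKO ovaries were Runx1-/f Foxl2-/- Sf1-Cre+/Tg, the Foxl2 KO ovaries Runx1+/f Foxl2-/- Sf1-cre+/+, the Runx1 KO ovaries Runx1-/f Foxl2+/+ Sf1-cre+/Tg, and the Control ovaries Runx1+/f Foxl2+/+ Sf1-cre+/+. All 4 genotypes came from crosses between Runx1f/f Foxl2+/- females and Sf1-cre+/Tg Runx1+/- Foxl2+/- males, so every ovary, Control included, carried a floxed Runx1 allele, on a mixed strain background. The Foxl2 null alleles are present in every cell, whereas Sf1-cre deletes the floxed Runx1 allele in the somatic cells of the gonad that express SF1. The other Runx1 allele of the DKO and Runx1 KO ovaries is null in every cell, and that of the Foxl2 KO and Control ovaries is intact. Cre was present in the DKO and Runx1 KO ovaries and absent from the Foxl2 KO and Control ovaries, so loss of Runx1 and presence of Cre cannot be told apart. RUNX1 and FOXL2 are DNA-binding regulators made in pre-granulosa cells, which surround the germ cells of the developing ovary, and the design asks what each does alone and in combination.

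Phospholipases A2 cut fatty acids, among them arachidonic acid, from membrane phospholipids. The cyclooxygenases PTGS1 and PTGS2 turn arachidonic acid into prostaglandin H2, and terminal synthases make prostaglandins D2, E2 and F2-alpha from it. HPGD inactivates prostaglandins such as E2. In the adult ovary prostaglandin E2 takes part in ovulation and F2-alpha in regression of the corpus luteum, and in the fetal testis prostaglandin D2 made by PTGDS acts in Sertoli cells.

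Levels are the deposited linear intensities, and differences are differences of mean log2(intensity + 16) with the moderated SE of limma (n = 4 ovaries per genotype). A gene is called at an adjusted p under 0.05 (limma, Benjamini-Hochberg over the 18193 genes). The array medians lay between 134 and 177 intensity units. In the targeted-gene check, Foxl2 had 569.8 to 839.1 intensity units in DKO ovaries and 484.2 to 889.7 in Foxl2 KO ovaries, against 2640.7 to 3585.0 in Runx1 KO and 2774.3 to 4240.9 in Control ovaries, with no overlap. Runx1 had 2111.5 to 2370.3 units in DKO, 2355.7 to 3054.0 in Foxl2 KO, 931.9 to 2127.0 in Runx1 KO and 2142.5 to 2358.6 in Control ovaries. Its log2 difference from Control was -0.0051 in DKO ovaries (limma adjusted p = 0.997) and -0.64 in Runx1 KO ovaries (adjusted p = 0.398). DKO ovaries thus had the Control level of Runx1, although their labels give the same Runx1 alleles and Cre as Runx1 KO ovaries. DKO differed from Runx1 KO by 0.64 (limma adjusted p = 0.176), and the cause was not tested. The position of the Runx1 probe set relative to the deleted part is not given in the sources used here. The Runx1 level therefore does not check the labels of the DKO and Runx1 KO ovaries. Signal of absent transcripts was gauged from 6 Y-linked genes, which XX ovaries lack. Their median mean level was 5.31 on the log2 scale and the highest, set by a probe set of Sry alone, was 8.30. The highest was the planned background level, and the median was added later. Mean levels of Pla2g2f, Pla2r1, Ptgs2, Ptgfr and Ptger4 lay below 8.30 in every genotype, and the mean of Ptges did so in DKO and Foxl2 KO ovaries.

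The sequences just before the gene starts are shown for the 4 members that passed the test in at least 1 pair of genotypes, since motifs of the factors under study can be read there. They are the 250 bases before the start, 5′ to 3′ along the gene, from RefSeq on GRCm38.p6. Capitals mark a match to the forkhead core TAAACA, which FOXL2 and other forkhead factors can bind, or to its reverse complement TGTTTA. Pla2g2f lies on the minus strand at chr4:138757599-138757848, Pla2r1 on the minus strand at chr2:60553309-60553558, Pla2g4a on the minus strand at chr1:149961291-149961540 and Ptges on the minus strand at chr2:30903298-30903547.
Pla2g2f: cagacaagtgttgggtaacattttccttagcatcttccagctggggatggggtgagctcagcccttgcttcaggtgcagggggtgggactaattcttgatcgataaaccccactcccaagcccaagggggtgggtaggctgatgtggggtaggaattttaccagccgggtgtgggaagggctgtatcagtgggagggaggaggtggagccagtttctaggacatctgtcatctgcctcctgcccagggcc
Pla2r1: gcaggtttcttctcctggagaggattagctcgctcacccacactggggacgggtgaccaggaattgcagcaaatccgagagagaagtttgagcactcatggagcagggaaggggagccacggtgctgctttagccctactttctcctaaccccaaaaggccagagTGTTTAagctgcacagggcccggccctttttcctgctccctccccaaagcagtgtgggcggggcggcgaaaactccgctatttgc
Pla2g4a: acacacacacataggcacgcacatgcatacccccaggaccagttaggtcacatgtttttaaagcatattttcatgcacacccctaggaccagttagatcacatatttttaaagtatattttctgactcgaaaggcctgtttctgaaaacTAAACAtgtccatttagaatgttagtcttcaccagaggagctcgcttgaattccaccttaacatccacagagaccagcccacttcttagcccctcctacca
Ptges: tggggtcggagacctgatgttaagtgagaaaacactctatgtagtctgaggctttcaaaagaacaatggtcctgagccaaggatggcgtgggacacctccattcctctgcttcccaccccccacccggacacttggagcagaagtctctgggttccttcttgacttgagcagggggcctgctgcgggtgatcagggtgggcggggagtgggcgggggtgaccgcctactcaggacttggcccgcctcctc
Matches on both strands were counted for TAAACA, for the RUNX core TGTGGT and for AAGGTCA, read by SF1 and LRH1. The forkhead core was found at -85 to -80 in Pla2r1, at -101 to -96 in the Pla2g4a window shown and, among the other members, at -216 to -211 in Ptgfr. It occurs in 12% of 32851 windows of this length. The RUNX core was found in Ptgs2 alone, at -197 to -192, and occurs in 14.0% of windows, whereas the SF1 core was found in no member and occurs in 4.08% of windows. These matches are letters in a window and were not set against binding.

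Pla2g2f, a secreted phospholipase A2 best known from mouse epidermis, was higher in the ovaries without Foxl2. Probe set 1434852_at gave 266.5, 124.6, 275.9 and 127.8 intensity units in the DKO ovaries. The Foxl2 KO ovaries had 91.2, 120.0, 197.8 and 58.1 units, the Runx1 KO ovaries 45.2, 27.2, 51.9 and 63.9, and the Control ovaries 17.9, 10.6, 6.4 and 3.3. Every ovary of the 3 knockout genotypes lay above every Control ovary, and the DKO and Foxl2 KO ranges overlapped each other. The mean level of the Control ovaries, 4.64 ± 0.35 on the log2 scale (SD, n = 4), was below the median of the Y-linked genes. Set against that median, this probe set was at least 5.1-fold higher in DKO and at least 3.11-fold higher in Foxl2 KO ovaries than in Control. Against the highest Y-linked level no bound can be given, since the mean of every genotype lay below it.

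The log2 difference of Pla2g2f from Control was 3.02 ± 0.33 in DKO ovaries (limma adjusted p = 6.64e-05) and 2.30 ± 0.33 in Foxl2 KO ovaries (limma adjusted p = 0.0013). In Runx1 KO ovaries it was 1.30 ± 0.33 and did not pass the test over all genes (limma adjusted p = 0.245), although the ranges did not overlap. DKO ovaries were 1.72 ± 0.33 above Runx1 KO ovaries on the log2 scale (limma adjusted p = 0.0177). They differed from Foxl2 KO ovaries by 0.71 (95% interval 0.02 to 1.41, limma adjusted p = 0.912). The second probe set of Pla2g2f, 1421325_at, did not pass: its log2 difference from Control was 0.62 in DKO ovaries (limma adjusted p = 0.472). It was 0.33 in Foxl2 KO ovaries (adjusted p = 0.802) and -0.21 in Runx1 KO ovaries (adjusted p = 0.946). The 2 probe sets thus gave the same sign in DKO and Foxl2 KO ovaries and opposite signs in Runx1 KO ovaries. The set used had the higher mean over all arrays by little, 6.297 against 6.221 on the log2 scale. It was the higher in DKO (7.659 against 6.654), Foxl2 KO (6.946 against 6.368) and Runx1 KO ovaries (5.943 against 5.826). In Control ovaries it was the lower (4.642 against 6.036). The choice between them therefore depended on the genotypes compared. The difference of 3.02 and the fold bounds given above hold for the set used alone, and the second set differed by less than those bounds.

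Pla2r1, the transmembrane receptor that binds secreted phospholipases A2, fell in the ovaries without Foxl2. Probe set 1450144_at gave 57.3, 74.4, 36.3 and 60.4 units in DKO ovaries and 14.8, 7.5, 57.2 and 77.7 in Foxl2 KO ovaries. The Runx1 KO ovaries had 220.8, 170.4, 170.6 and 450.0 units and the Control ovaries 230.6, 157.9, 299.8 and 207.9. The highest ovary without Foxl2 was below the lowest ovary with it, while Runx1 KO and Control ovaries overlapped. Against Control the log2 difference was -2.31 ± 0.40 in Foxl2 KO ovaries (limma adjusted p = 0.00608) and -1.71 ± 0.40 in DKO ovaries (limma adjusted p = 0.0353). The Runx1 KO difference was 0.08 (95% interval -0.76 to 0.93, limma adjusted p = 0.976). The DKO call was lost without Control replicate 1, 3 or 4 and without any of the 4 DKO ovaries, with limma adjusted p up to 0.105. The other Pla2r1 probe set, 1454145_at, had a mean level of 4.50 on the log2 scale, below the median of the Y-linked genes, and differed from Control by -0.01 in DKO ovaries.

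**Figure D1:**
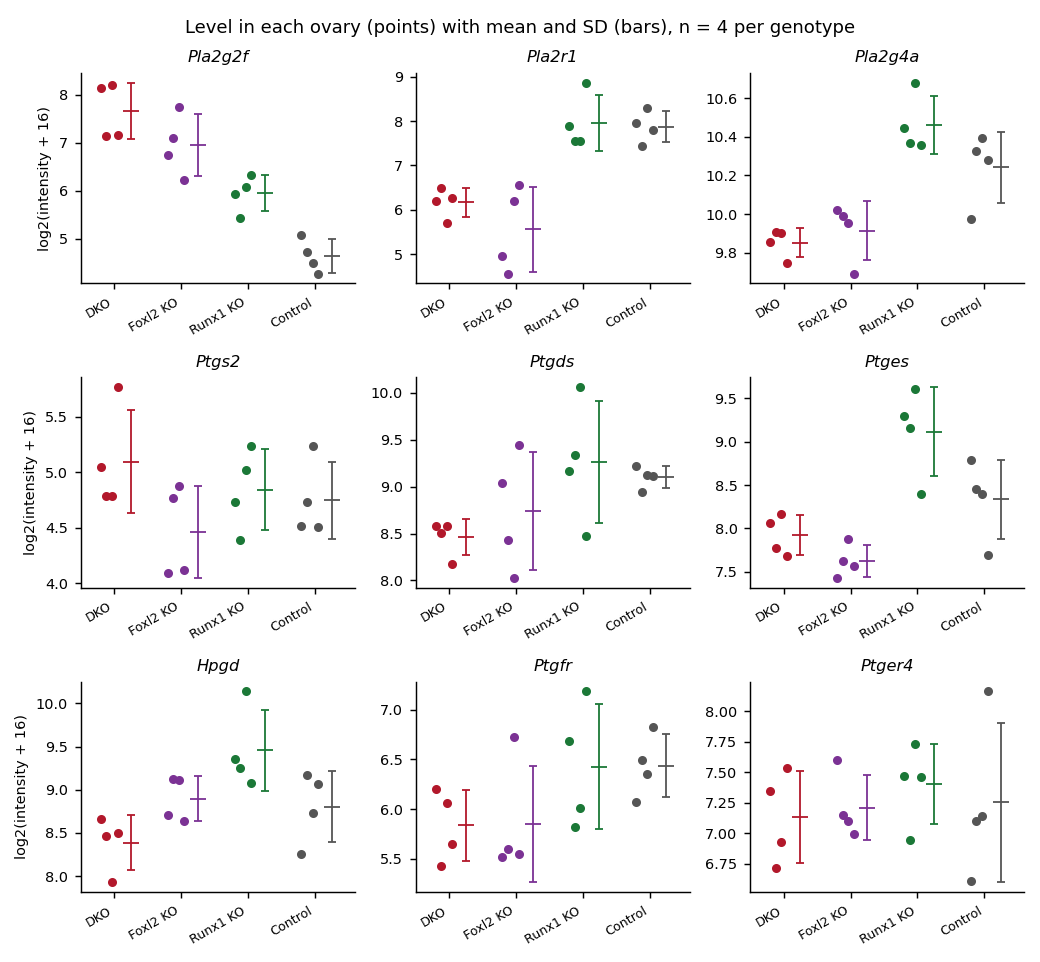
Level of the 9 measured genes in each ovary as log2(intensity + 16) on the vertical axis (points) by genotype, with mean and SD (bars, n = 4), each panel with its own scale that does not start at 0. Pla2g2f was lowest in the 4 Control ovaries, at 3.3 to 17.9 intensity units, and Pla2r1 in the 8 ovaries without Foxl2, at 7.5 to 77.7 units.

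Over the 9 measured genes, 2 were called in DKO against Control, where 2.13% of all genes were called, and 2 in Foxl2 KO against Control, where 1.52% were called. They were Pla2g2f, higher, and Pla2r1, lower, in each case. In Runx1 KO against Control 0 of 9 were called by limma, where 0.121% of all genes were, and 3 had an unadjusted p under 0.05 (Pla2g2f, Ptges and Hpgd) against 7.34% of all genes. The median log2 difference of the 9 genes was -0.41 in DKO ovaries, -0.33 in Foxl2 KO ovaries and 0.16 in Runx1 KO ovaries, beside 0.04, 0.05 and 0.04 for all genes. The 3 comparisons share the same 4 Control arrays. Because the list was chosen with earlier results known, counts of its genes beside all genes are descriptions, here and below. In DKO against Control 4 of the 9 genes had ranges that did not overlap, namely Pla2g2f, Pla2r1, Pla2g4a and Ptgds, where 7.61% of all genes had such ranges. This held for 2 of 9 in Foxl2 KO against Control (6.72% of all genes), 1 in Runx1 KO against Control (3.97%), 5 in DKO against Runx1 KO (5.93%) and 0 in DKO against Foxl2 KO (3.57%).

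Pla2g4a, the cytosolic calcium-dependent phospholipase A2 that frees arachidonic acid, was lower in DKO than in Runx1 KO ovaries. Its single probe set gave 911.0, 945.6, 940.5 and 842.4 units in DKO ovaries and 1022.3, 1001.7, 977.2 and 810.9 in Foxl2 KO ovaries. Runx1 KO ovaries had 1378.2, 1304.8, 1624.1 and 1296.5 units, and Control ovaries 990.9, 1266.4, 1328.4 and 1225.8. Every DKO ovary lay below every Runx1 KO and every Control ovary. The log2 difference of DKO from Runx1 KO was -0.61 ± 0.12 (limma adjusted p = 0.0281). Against Control it was -0.39 ± 0.12 in DKO (adjusted p = 0.151) and -0.33 ± 0.12 in Foxl2 KO ovaries (adjusted p = 0.309). The Runx1 KO difference was 0.22 ± 0.12 (adjusted p = 0.736), and none of the 3 passed limma's test.

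Ptges, the inducible microsomal synthase of prostaglandin E2, was likewise lower in DKO than in Runx1 KO ovaries. The chosen probe set, 1449450_at, gave 251.2, 203.0, 271.2 and 188.9 units in DKO and 156.4, 180.9, 219.8 and 174.1 in Foxl2 KO ovaries. Runx1 KO ovaries had 613.2, 554.3, 766.1 and 320.9 units, and Control ovaries 425.3, 335.5, 320.6 and 191.9. The lowest Runx1 KO ovary was above all DKO and Foxl2 KO ovaries, and the Control ovaries overlapped those of all 3 knockout genotypes. The log2 difference of DKO from Runx1 KO was -1.19 ± 0.25 (limma adjusted p = 0.0321). Against the highest Y-linked level, DKO ovaries were at least 1.76-fold lower than Runx1 KO ovaries. Against Control it was -0.41 ± 0.25 in DKO ovaries, -0.71 ± 0.25 in Foxl2 KO and 0.78 ± 0.25 in Runx1 KO ovaries, and none passed (limma adjusted p = 0.553 in DKO ovaries, 0.256 in Foxl2 KO and 0.454 in Runx1 KO ovaries). The other 2 Ptges probe sets, tested together with every probe set of the array, differed in the same direction between DKO and Runx1 KO, by -1.68 and -1.75 (limma adjusted p = 0.032 and 0.00267).

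Hpgd, the dehydrogenase that inactivates prostaglandins, had 389.0, 336.1, 227.9 and 344.9 units in DKO ovaries and 403.3, 544.2, 535.8 and 381.9 in Foxl2 KO ovaries. Runx1 KO ovaries had 640.4, 592.9, 1113.7 and 526.5 units, and Control ovaries 289.6, 558.5, 409.7 and 518.6. Every DKO ovary was below every Runx1 KO ovary, but the log2 difference of -1.07 ± 0.25 fell short of the threshold (limma adjusted p = 0.0543). It passed without Control replicate 1 or Runx1 KO replicate 4 and under several settings given with the processing alternatives. Hpgd had the smallest p of the 9 genes for the interaction, the difference of DKO from Foxl2 KO less that of Runx1 KO from Control, at -1.16 ± 0.35 (limma adjusted p = 0.8). In the interaction 0 of 9 were called by limma and 1 had an unadjusted p under 0.05, where 0.011% of all genes were called and 5.33% had such a p.

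In DKO against Runx1 KO, which differ in Foxl2 and share Cre and the Runx1 alleles, 4 of the 9 were called, where 0.989% of all genes were. Pla2g2f was higher, and Pla2r1 (-1.80 ± 0.40, limma adjusted p = 0.0445), Pla2g4a and Ptges were lower. The median log2 difference of the 9 genes was -0.61, beside 0.02 for all genes. These calls were near the threshold: leaving out 1 ovary at a time left 0 to 4 of them, with 0 left without DKO replicate 1 or 3 or without Runx1 KO replicate 1 or 2. In DKO against Foxl2 KO, which differ in Runx1 and Cre, limma called 0 of 9 and 2 had an unadjusted p under 0.05 (Pla2g2f and Ptgs2), where 0.0605% of all genes were called and 5.38% had such a p.

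**Figure D2:**
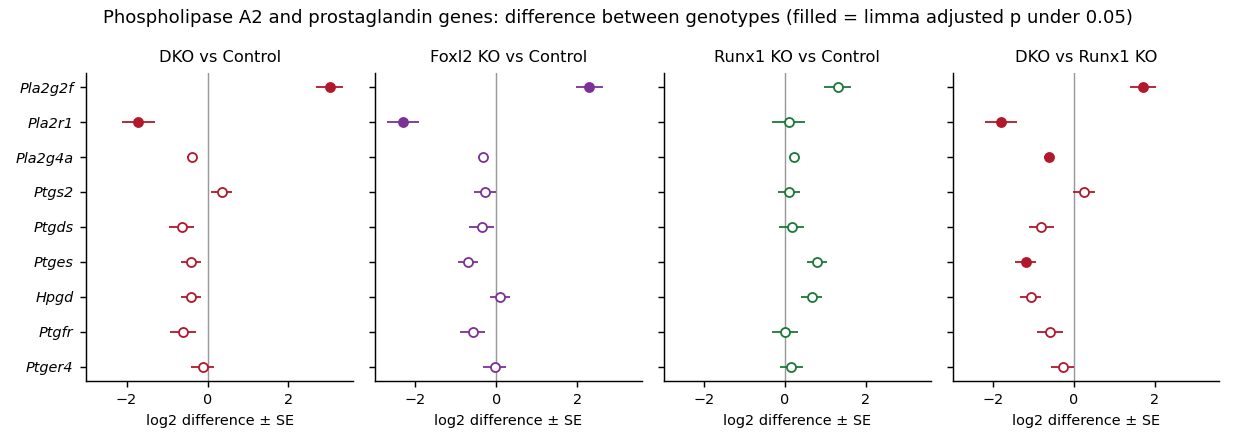
Log2 difference (horizontal axis) with its moderated SE for the 9 measured genes in 4 pairs of genotypes, filled where the limma adjusted p was under 0.05. Pla2g2f was called above and Pla2r1 below in DKO against Control, Foxl2 KO against Control and DKO against Runx1 KO, and in Runx1 KO against Control 0 of 9 genes were called.

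A contrast added after the data were seen set the mean of the DKO and Foxl2 KO groups against the mean of the Runx1 KO and Control groups in the same fit. Here 4 of 9 genes were called, where 3.14% of all genes were. Pla2g2f was higher by 2.01 ± 0.23 (limma adjusted p = 8.52e-05), while its second probe set, 1421325_at, gave 0.58 and did not pass (adjusted p = 0.229). Pla2r1 was lower at -2.05 ± 0.28 (adjusted p = 0.000447), Ptges at -0.95 ± 0.18 (adjusted p = 0.00553) and Pla2g4a at -0.47 ± 0.09 (adjusted p = 0.00604). These 4 calls remained when any 1 of the 16 arrays was left out. The matching contrast for Runx1, DKO and Runx1 KO against Foxl2 KO and Control, called 0 of 9 by limma, where 0.28% of all genes were called, and 2 had an unadjusted p under 0.05, where 7.27% did. Its largest member difference was that of Pla2g2f, 1.01 ± 0.23 (limma adjusted p = 0.119).

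Ptgds, the lipocalin-type synthase of prostaglandin D2, had 367.2, 346.3, 367.1 and 273.1 units in DKO ovaries and 509.4, 329.6, 244.6 and 681.6 in Foxl2 KO ovaries. Runx1 KO ovaries had 557.2, 632.8, 1053.8 and 340.4 units, and Control ovaries 581.8, 475.9, 541.0 and 539.6. The DKO ovaries were all below the Control ovaries, yet the log2 difference of -0.64 (95% interval -1.29 to 0.01) did not pass (limma adjusted p = 0.41). It was -0.37 in Foxl2 KO (95% interval -1.01 to 0.28) and 0.16 in Runx1 KO ovaries (95% interval -0.49 to 0.81). The second Ptgds probe set gave -0.49, -0.46 and 0.14 in the same 3 comparisons.

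Ptgs2, the inducible cyclooxygenase, had 11.5 to 38.5 units in DKO, 1.0 to 13.3 in Foxl2 KO, 5.0 to 21.6 in Runx1 KO and 6.7 to 21.8 in Control ovaries. Its mean was below the median of the Y-linked genes in all 4 genotypes, so no fold is given. Pla2g4a and Ptgs2 are neighbours on chromosome 1 in the RefSeq annotation.

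Among the receptors, Ptgfr, which binds prostaglandin F2-alpha, had 27.0 to 57.7 units in DKO, 29.8 to 89.5 in Foxl2 KO, 40.4 to 129.7 in Runx1 KO and 51.1 to 97.4 in Control ovaries. Its log2 difference from Control was -0.60 in DKO ovaries (95% interval -1.28 to 0.08), -0.59 in Foxl2 KO (95% interval -1.27 to 0.09) and -0.01 in Runx1 KO ovaries (95% interval -0.69 to 0.67). Ptger4, a receptor of prostaglandin E2, had 89.0 to 169.3 units in DKO, 111.8 to 177.7 in Foxl2 KO, 107.3 to 197.1 in Runx1 KO and 81.6 to 271.2 in Control ovaries. The ranges of each receptor overlapped between all genotypes. The Ptger4 difference from Control was -0.12 in DKO ovaries (95% interval -0.73 to 0.48), -0.04 in Foxl2 KO (-0.65 to 0.56) and 0.15 in Runx1 KO ovaries (-0.46 to 0.75). No difference of either receptor passed limma's test.

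**Figure D3:**
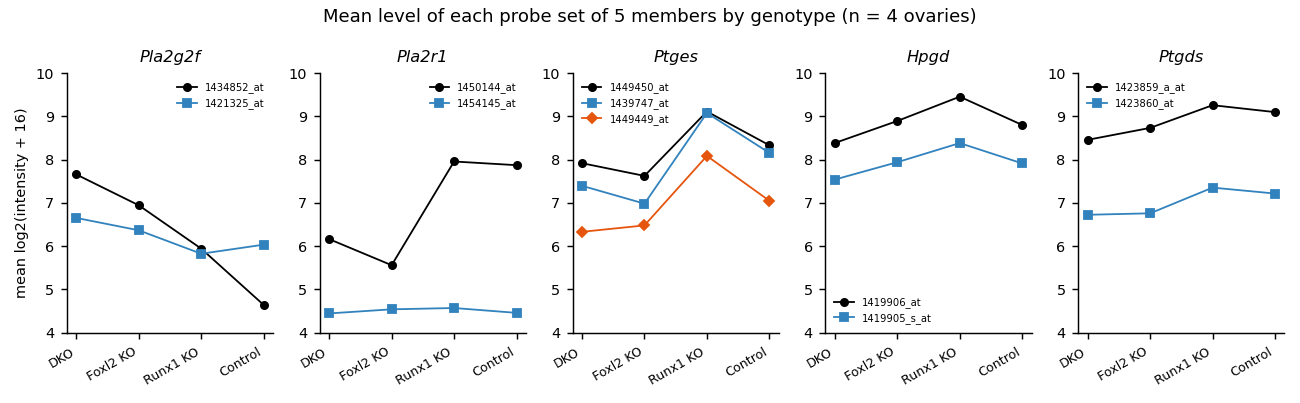
Mean log2(intensity + 16) of every probe set of 5 genes by genotype (n = 4 ovaries), black for the probe set used. The 3 Ptges probe sets shared a peak in Runx1 KO ovaries, whereas the second Pla2g2f probe set, 1421325_at, differed from Control by 0.62 in DKO ovaries, against 3.02 for the set used.

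A wider list of 48 further genes of the pathway, of which 45 were measured, was set beside the members. In DKO against Control 1 of the 45 was higher and 3 were lower, where 2.13% of all genes were called in either direction. In Foxl2 KO against Control 0 were higher and 3 lower (1.52% of all genes called), and in Runx1 KO against Control 0 and 1 (0.121%). In DKO against Runx1 KO 1 was higher and 2 were lower (0.989%). In DKO against Foxl2 KO limma called 0 of 45, with 6 at an unadjusted p under 0.05, where 0.0605% of all genes were called and 5.38% had such a p. The median log2 difference of the 45 from Control was 0.03 in DKO ovaries, -0.04 in Foxl2 KO and 0.02 in Runx1 KO ovaries, close to those of all genes given above. The genes called were Pla2g5, Akr1c18, Ptger2 and Ptger3.

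Pla2g5, a secreted phospholipase A2, had 479.8, 426.0, 548.3 and 324.2 units in DKO and 339.3, 345.1, 242.0 and 278.4 in Foxl2 KO ovaries. Runx1 KO ovaries had 175.1, 171.3, 191.9 and 246.4 units, and Control ovaries 135.8, 275.9, 198.5 and 187.0. All DKO ovaries lay above all Runx1 KO and Control ovaries. The means of those 2 genotypes were below the highest Y-linked level, and against it DKO was at least 1.44-fold higher. The log2 difference was 1.11 ± 0.20 against Control (limma adjusted p = 0.0067) and 1.11 ± 0.20 against Runx1 KO (adjusted p = 0.0134), and that of Foxl2 KO against Control was 0.58 (adjusted p = 0.247). The call against Runx1 KO was lost without Runx1 KO replicate 1 (limma adjusted p = 0.051) or DKO replicate 3 (0.0556), and that against Control in a fit of only the groups compared (0.0504). Pla2g5 lies in the same group of phospholipase genes on chromosome 4 as Pla2g2f, in the annotated order Pla2g2c, Pla2g2f, Pla2g2d, Pla2g5, Gm13030, Pla2g2e. Pla2g2c, Pla2g2d and Pla2g2e were not called in any pair of genotypes, with levels of 29.9 to 75.7, 19.0 to 48.9 and 2.4 to 42.9 units over the 16 ovaries.

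Ptger2 and Ptger3, receptors of prostaglandin E2, fell in the ovaries without Foxl2. Ptger2 had 6.4, 2.4, 7.3 and 22.8 units in DKO and 17.6, 3.0, 2.9 and 1.6 in Foxl2 KO ovaries. It had 46.0, 36.0, 39.4 and 70.6 units in Runx1 KO and 52.7, 50.9, 52.7 and 42.1 in Control ovaries, all above those without Foxl2. The Ptger2 means in DKO and Foxl2 KO ovaries were below the median of the Y-linked genes, and against it each was at least 1.65-fold lower than Control (log2 difference -1.41 ± 0.24, limma adjusted p = 0.00409, in DKO, and -1.61 ± 0.24, adjusted p = 0.00195, in Foxl2 KO). Against the highest Y-linked level no bound can be given for Ptger2, whose mean lay below it in every genotype.

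Ptger3 had 291.4, 269.8, 173.3 and 301.9 units in DKO and 187.0, 246.5, 154.9 and 239.7 in Foxl2 KO ovaries, against 860.2, 1068.5, 926.0 and 523.9 in Runx1 KO and 622.6, 707.0, 804.3 and 715.2 in Control ovaries. Its log2 difference from Control was -1.43 ± 0.22 in DKO (limma adjusted p = 0.00173) and -1.72 ± 0.22 in Foxl2 KO ovaries (adjusted p = 0.000459). The probe set used for Ptger3 is shared between transcripts, and with a probe set that is not shared the differences were -0.43 and -0.55 (limma adjusted p = 0.728 and 0.686). In DKO against Runx1 KO the differences were -1.34 ± 0.24 for Ptger2 (limma adjusted p = 0.011) and -1.63 ± 0.22 for Ptger3 (adjusted p = 0.0013). The probe set of Ptger3 that is not shared gave -1.23 there (limma adjusted p = 0.2), and the Ptger2 call was lost in a fit of only the groups compared (0.0612).

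Akr1c18, listed among the synthases for its activity on prostaglandins but best known for inactivating progesterone, fell in every knockout genotype. It had 29.6, 3.1, 3.5 and 10.9 units in DKO, 16, 18.8, 53.4 and 26.7 in Foxl2 KO and 38.0, 21.4, 52.2 and 44.7 in Runx1 KO ovaries. The Control ovaries had 259.9, 446.9, 488.9 and 400.9 units, above all knockout ovaries. The log2 difference from Control was -3.96 ± 0.31 in DKO, at least 9.86-fold lower since DKO lay below the Y-linked median (limma adjusted p = 3.09e-06). Against the highest Y-linked level, Akr1c18 was at least 1.28-fold lower than Control in each knockout genotype. Foxl2 KO ovaries differed by -3.25 ± 0.31 (adjusted p = 3.07e-05) and Runx1 KO ovaries by -2.91 ± 0.31 (adjusted p = 0.000729). The summed level of the 4 measured of 5 steroid-making cell markers was 1094 to 1461 units in DKO, 1269 to 1879 in Foxl2 KO, 1500 to 1754 in Runx1 KO and 3068 to 4061 in Control ovaries. Most of the difference in that sum lay in Hsd3b1, which averaged 622.4 units in DKO and 2837.3 in Control ovaries. It was the 1 marker of the 4 called in any knockout genotype against Control. Star averaged 517.9 units in DKO and 533.1 in Control ovaries, and 3 of the 4 differences of Foxl2 KO from Control were positive. The part of these cells in the Akr1c18 difference was not tested.

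Branches of the list without a called gene are given by their smallest p against Control. In DKO ovaries the transporter Abcc4 had a log2 difference of -1.61 ± 0.50 (limma adjusted p = 0.138), and the lipoxygenase Alox5 had -0.85 ± 0.33 (adjusted p = 0.272). Among the other phospholipases inside the cell, Pla2g4f had -0.89 ± 0.36 in Foxl2 KO ovaries (limma adjusted p = 0.343), and the regulator Anxa1, an annexin, had -0.75 ± 0.31 there (adjusted p = 0.373). The Control level of Anxa1 was 1753.5 units in replicate 4 and 518.7, 660.1 and 678.5 in the others.

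**Figure D4:**
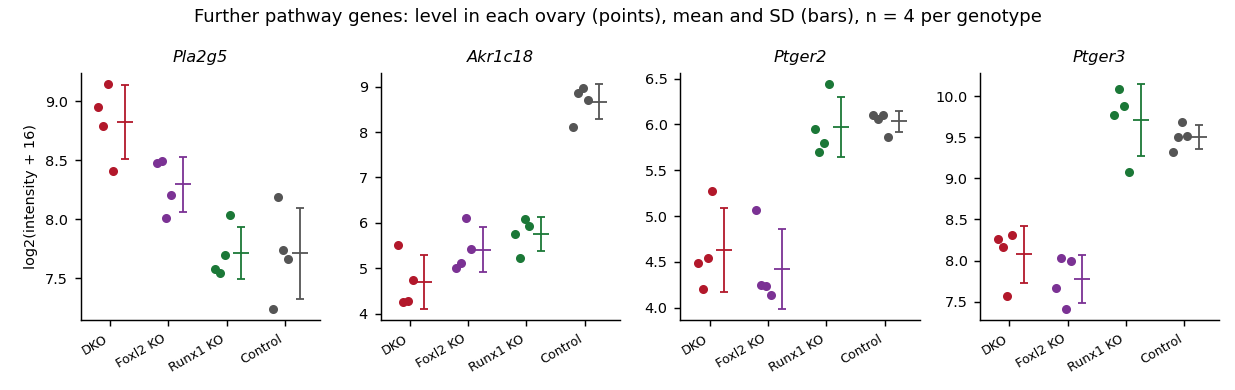
Level in each ovary as log2(intensity + 16) on the vertical axis (points) with mean and SD (bars, n = 4) for the 4 called genes of the wider list, each panel with its own scale that does not start at 0. Akr1c18 was lower in all 3 knockout genotypes than in Control, and Ptger2 and Ptger3 lay below the Control range in the DKO and Foxl2 KO ovaries.

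The genes whose levels followed a called member most closely over the 16 arrays, among 8330 genes with a mean above 8.30 (8329 for Pla2g4a), were Prkg2, Cdkn1a and Jakmip1 for Pla2g2f (Pearson r = 0.928, 0.905 and 0.903). For Pla2r1 they were Shfl, Ntn4 and P4ha3 (r = 0.921, 0.91 and 0.908), for Pla2g4a Fut8, Smim13 and Mme (r = 0.891, 0.887 and 0.865), and for Ptges Mras, Sdc2 and Susd4 (r = 0.935, 0.928 and 0.885). After the group means were removed, r was 0.418 for Prkg2, 0.631 for Shfl, 0.588 for Fut8 and 0.794 for Mras. Among the members themselves, Pla2g4a had r = 0.755 with Ptges and 0.759 with Hpgd, and Pla2g2f had r = -0.684 with Pla2r1. All 16 points share the array scaling and the 4 genotypes, and these values are descriptions.

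Markers of pre-granulosa and other cells were measured beside the members. Of 8 pre-granulosa markers, 4 were called lower in DKO against Control (Foxl2, Fst, Kitl and Esr2) and 3 in Foxl2 KO against Control (Foxl2, Kitl and Esr2). Wnt4, Rspo1 and Irx3 had positive differences in both comparisons, with limma adjusted p of at least 0.0745 in DKO and 0.228 in Foxl2 KO ovaries. In the added contrast of Foxl2-null with Foxl2-intact groups, 1 of the 8 was called higher and 4 lower, where 3.14% of all genes were called. The 7 markers other than Foxl2 summed to 7847 to 8040 units in DKO, 7782 to 9836 in Foxl2 KO, 7328 to 10053 in Runx1 KO and 7652 to 11253 in Control ovaries, with overlap between all genotypes. Rspo1, the largest part of that sum in DKO ovaries, averaged 3804.5 units there and 2651.8 in Control ovaries. The mean log2 deviation of all 8 markers from their means over the arrays, Foxl2 included, was -0.51 to -0.36 in DKO ovaries. It was -0.41 to 0.08 in Foxl2 KO, 0.10 to 0.39 in Runx1 KO and 0.07 to 0.65 in Control ovaries. Of 8 Sertoli markers, all measured, 4 were called higher in DKO and 5 in Foxl2 KO ovaries against Control. The mean log2 deviation of the 7 other than Ptgds, itself a member, was 0.49 to 0.80 in DKO and 0.21 to 0.77 in Foxl2 KO ovaries, against -0.66 to -0.25 in Runx1 KO and -0.99 to -0.57 in Control ovaries. Their summed level was 4304 to 5040 units in DKO, 2263 to 4136 in Foxl2 KO, 2445 to 2898 in Runx1 KO and 2810 to 4227 in Control ovaries, and Amh lay below the median of the Y-linked genes. The summed level of 5 of 6 mesonephric markers was 865 to 1091 units in DKO, 674 to 786 in Foxl2 KO, 339 to 722 in Runx1 KO and 206 to 493 in Control ovaries. Most of its difference lay in Pax8, which averaged 700.7 units in DKO and 152.8 in Control ovaries, while 3 of the 5 had positive differences in DKO against Control and Lhx1 lay below the Y-linked median. The summed level of 8 oocyte markers was 10883 to 14110 units in DKO, 11031 to 19849 in Foxl2 KO, 12084 to 22589 in Runx1 KO and 8580 to 18166 in Control ovaries. These ranges overlapped between all genotypes. Runx1 KO replicate 3 was the highest Runx1 KO ovary for this list and also for Pla2g4a, Ptges, Hpgd, Ptgds and Ptger4. Without it Pla2g4a and Ptges were no longer called in DKO against Runx1 KO (limma adjusted p = 0.104 and 0.109). The part of any of these cells in the changes of Pla2g2f, Pla2r1, Pla2g4a, Ptges, Hpgd and Ptgds was not tested. In RNA of whole ovaries, fewer cells of a type and less RNA per cell cannot be told apart. The summed level of 3 of 5 erythroid markers was at most 501 units in any DKO, Foxl2 KO or Runx1 KO ovary and 11235 in Control replicate 4. In that array Slc4a1 had 9842.4 units and Alas2 1391.2, whereas Hba-a1, whose mean lay below the Y-linked median, had 1.3. Without that array Pla2g2f stayed called in DKO (2.89, limma adjusted p = 0.000354) and Foxl2 KO ovaries (2.18, adjusted p = 0.00562) against Control, and Pla2r1 stayed called in Foxl2 KO (-2.34, adjusted p = 0.0159) but not in DKO ovaries (-1.73, adjusted p = 0.0677).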

How the data were processed

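RNA of single P0 ovaries was amplified with WT-Ovation Pico and hybridised to Affymetrix Mouse Genome 430 2.0 arrays. The deposited intensity values are linear, per probe set, made by the authors with Affymetrix Expression Console 1.2, and every array has the same mean (500 units) after trimming 2% at each end. The summarisation algorithm and genome build are not given in the sources used here. The study's own tests used RMA values on the log2 scale, which were not used here. The number of arrays limits the precision. All 16 value columns were matched to samples. Of 45101 probe sets, 64 were controls, 34945 matched 1 gene, 932 several and 9160 none, giving 18193 genes, 9010 of them with several probe sets.

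An offset of 16 was added before log2. The probe set with the highest mean stood for a gene. Group means were fitted with limma 3.58.1 (lmFit, eBayes) in R 4.3.3 (residual df 12, prior df 3.32), two-sided, with Benjamini-Hochberg adjustment over all genes within a contrast. All members were described, with wider-list genes called in a pairwise contrast (or the smallest p of a branch) and the 3 genes most correlated with each called member. Members, lists and tests were chosen with earlier results of these data known. The fit was tested on simulated data. The replicate numbers of the labels were not a pairing: of 24 same-numbered pairs, 1 had a residual correlation above 0.1 (median -0.0318). Replicates of a genotype correlated at 0.959 to 0.983 and none was a copy of another. Alternatives changed scaling, offset, probe set, filter, prior, weights, block, samples and call rule, or left out each array in turn. Sequences came from RefSeq windows of GRCm38.p6 read with Python 3.11.15.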

Additional observations from a re-analysis of the deposited data

Results flagged for a closer look

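In 52 groups of 4 ovaries examined for the members and the 4 called genes of the wider list, a single ovary stood far from the other 3 in 3 cases. About 1 group in 20 does so by chance. Ptgfr had 89.5 intensity units in Foxl2 KO replicate 3, where the other Foxl2 KO ovaries had 29.8 to 32.5. Ptger2 had 17.6 units in Foxl2 KO replicate 1, against 1.6 to 3.0 in the other Foxl2 KO ovaries. In Control replicate 4 Ptger2 had 42.1 units, against 50.9 to 52.7 in the other Control ovaries.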

How the results depend on the processing

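Over 32 alternatives, Pla2g2f in DKO and Foxl2 KO against Control and Pla2r1 in Foxl2 KO against Control stayed called wherever they were tested. They dropped out when only genes above the median level were tested, which left 0 members called in DKO and in Foxl2 KO against Control and 2 in the contrast of Foxl2-null with Foxl2-intact groups. In DKO against Control the count was 1 with no offset, with a floor of 16 and with a gene's probe sets averaged, each losing Pla2r1 (limma adjusted p = 0.14, 0.0668 and 0.112), and 1 to 2 when an array was left out. In DKO against Runx1 KO it was 1 with no offset, 2 with equal array medians, with only the groups compared and with every probe set adjusted together, and 0 to 4 when an array was left out. Hpgd there passed with an offset of 50 (adjusted p = 0.0392), a trended robust prior (0.0231), array weights (0.0321) and genes above the median level (0.0202). The one-way analysis of variance with a 1.5-fold minimum called 3 members unadjusted (1.84% of all genes) and 2 adjusted (0.434%) in Runx1 KO against Control, and 2 (1.69%) and 2 (0.423%) in DKO against Foxl2 KO. It tests all 4 genotypes at once, not the pair. With no offset Akr1c18 in Runx1 KO against Control had an adjusted p of 0.0724, and Ptger2 had 0.054 in DKO against Control and 0.106 in DKO against Runx1 KO. Except for the analysis of variance, the share of all genes called under each setting is not given here. Those counts alone cannot tell a change of the members from one of the whole array. Where not stated, the cause was not tested.

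With the replicate number as a block, which does not pair these arrays, the number of members called was that of the main fit. This held in every pair of genotypes and in the interaction. The share of all genes called in that fit is not given here.

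The signs that turned belonged to differences near 0. In Runx1 KO against Control, Ptgfr became 0.00688 with an offset of 50 and 0.0233 with array weights, and with 1 array left out Pla2r1 ranged from -0.22 to 0.23, Ptgs2 from -0.0325 to 0.26, Ptgds from -0.11 to 0.42, Ptgfr from -0.27 to 0.19 and Ptger4 from -0.0659 to 0.45. In Foxl2 KO against Control, Ptger4 became 0.0637 with array weights, and with 1 array left out Hpgd ranged from -0.0909 to 0.21 and Ptger4 from -0.26 to 0.26. In DKO against Control, Ptger4 ranged from -0.34 to 0.18. Genes near the Y-linked levels, Ptgs2 above all, are limited by signal over background.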
